A study of Rattus norvegicus with 6 samples.

Results

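The intercalated cell acid-base genes were 10 rat genes chosen by name: Atp6v1b1, Atp6v0d2, Atp6v1g3, Atp6v1c2, Atp6v0a4, Slc4a9, Slc26a4, Foxi1, Rhcg and Rhbg. Their probes were the non-control probes whose RefSeq accession belongs to one of these genes. In this way 9 of the 10 were found, with 15 probes, among 15284 gene symbols on the array. No probe was matched to Atp6v0a4, the a4 subunit of the membrane sector of the proton pump, and it is not analysed here. All 15 probes were well above background on all 6 arrays, so none of the 9 genes depended on the filter for dim probes.

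Total RNA of renal cortex from male Sprague-Dawley (Crl:CD(SD)) rats, bought at 5 weeks of age, was hybridised singly to 6 one-colour Agilent arrays. In the control group 3 rats were given corn oil, the vehicle, for 4 weeks, and in the treated group 3 rats were given o-nitroanisole, a nitroaromatic compound, at 400 mg/kg/day for 4 weeks. The labels describe the arrays of a group as biological replicates, and the comparison asks how this exposure alters transcript levels in the cortex. The cortex was taken whole, so every level is an average over all of its cell types.

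Intercalated cells are the acid-base cells of the connecting tubule and collecting duct. Alpha cells secrete protons into urine with a V-type proton ATPase in their apical membrane and return bicarbonate to blood through the anion exchanger Slc4a1 (AE1). Beta cells secrete bicarbonate through the apical exchanger pendrin, encoded by Slc26a4, and carry the exchanger Slc4a9 (AE4) in their basolateral membrane. Both kinds depend on the forkhead transcription factor Foxi1, which is known to act on genes of the proton pump and of the exchangers.

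All 9 measured genes had a higher mean in the o-nitroanisole rats, with log2 differences (o-nitroanisole minus corn oil) from 0.14 for Atp6v1c2 to 0.69 for Slc4a9 and a median of 0.42. The median over all 32428 features tested, a feature being a gene or an unnamed probe, was 0.03, and 56.0% of features lay above 0. Under limma with its default moderation, 0 of the 9 genes passed a Benjamini-Hochberg adjusted p of 0.05. On the whole array 0 features (0.0%) did. At an unadjusted p under 0.05, 7 of the 9 were higher and 0 lower, where 11.8% of all features were higher and 7.12% lower. The groups did not overlap, with the treated rats on the higher side, for the same 7 genes: Slc4a9, Rhbg, Atp6v0d2, Atp6v1g3, Foxi1, Slc26a4 and Rhcg. Over all features this held for 17.6%, and 9.56% were apart with the treated rats on the lower side, as 0 of the 9 genes were. Atp6v1b1 and Atp6v1c2 overlapped. In whole cortex, more intercalated cells and more RNA per such cell cannot be told apart. Slide 1 held only arrays of corn oil rats and slide 2 only those of o-nitroanisole rats, scanned apart, so slide, scan and treatment cannot be told apart for any value given here.

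**Figure D1:**
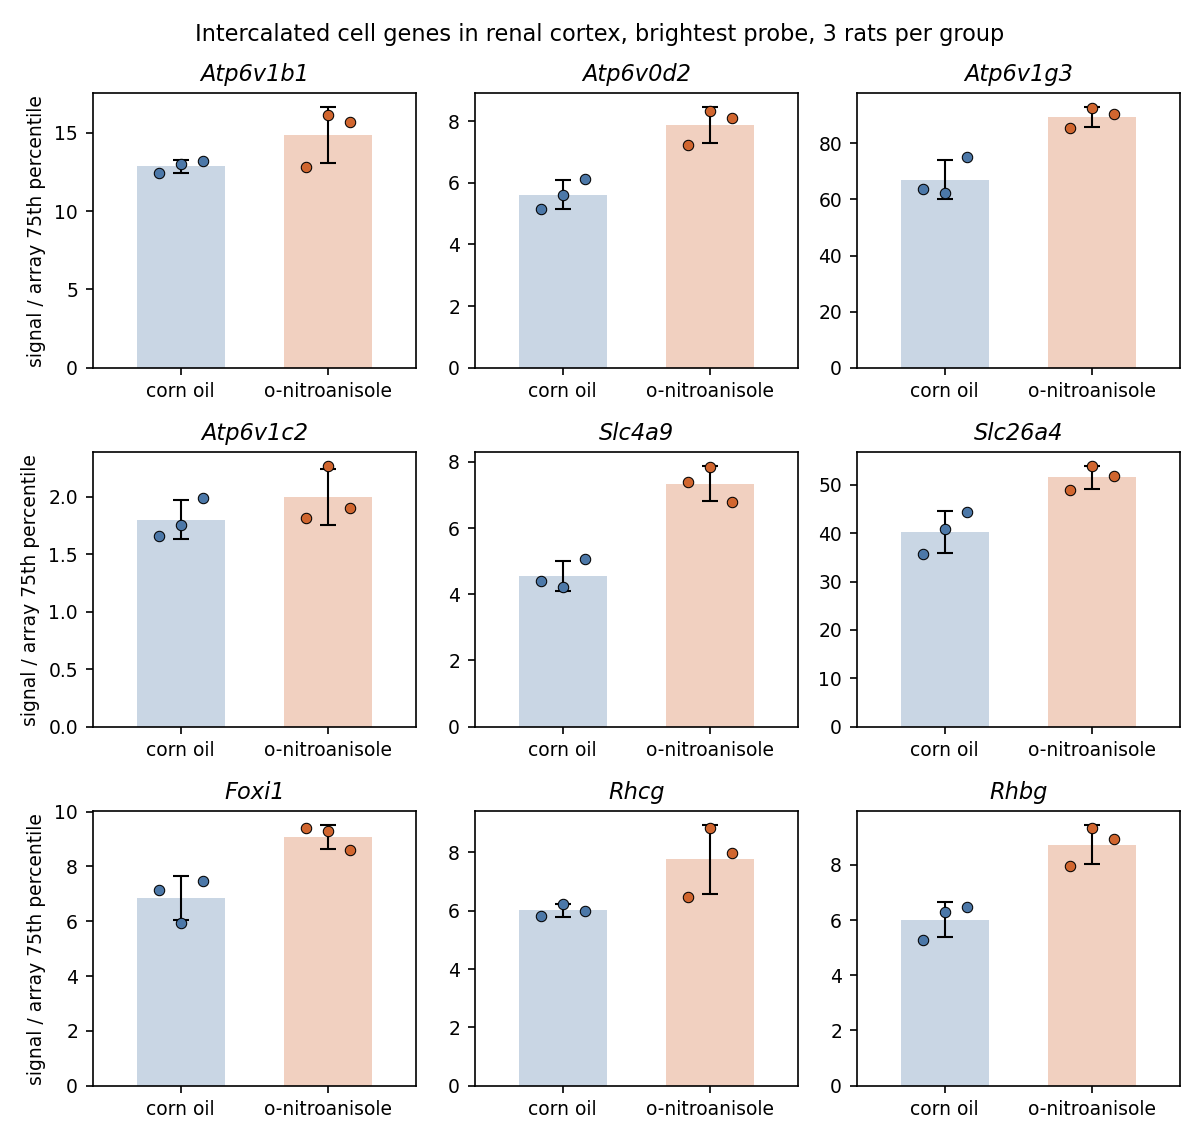
Processed signal of the brightest probe of each gene, divided by the 75th percentile of the array, for the 3 corn oil rats (blue) and the 3 o-nitroanisole rats (orange); bars are means and error bars SD. The groups overlap for Atp6v1b1 and Atp6v1c2 and are apart for the other 7 genes, with the largest fold, 1.61, for Slc4a9.

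The levels below are processed signals divided by the 75th percentile of the same array, called the scaled signal, and are given for replicates 1, 2 and 3 in that order. Each gene is represented by its brightest probe. Scaled signals of different probes cannot be set against each other, because probes differ in how well they bind.

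Foxi1 is the regulator of the set. Its scaled signal was 7.14, 5.92 and 7.47 in the corn oil rats and 9.40, 9.28 and 8.59 in the o-nitroanisole rats. Every treated rat lay above every control rat, and the lowest control was replicate 2. The log2 difference was 0.42 ± 0.11 (SE, n = 3 per group, 95% interval 0.16 to 0.68, limma adjusted p = 0.148), a 1.33-fold higher level. The 2 dimmer probes of Foxi1 gave 0.28 each, with SE of 0.07 and 0.11, and on both the groups were apart as well.

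Foxi1 is a forkhead factor, so the 250 bases before the annotated start of each gene were searched for the forkhead core TGTTTAC and its variant TATTTAC on both strands. The sequences are from RefSeq, build GRCr8; the array design names rn4, an older build, and no array coordinates are given. Of the 10 genes 9 had a window, Atp6v0a4 among them and Atp6v0d2 not. Either word was found in 2 of the 9 windows, those of Slc4a9 and Atp6v1b1, and in 6.14% of all 33469 windows of this length. The windows of Slc4a9 and Rhbg, the genes with the largest differences, of Foxi1 itself and of Atp6v1b1 are printed below, read 5′ to 3′ along the gene and ending just before its start, with the forkhead cores in capitals. The core TATTTAC of Slc4a9 begins 223 bases and the core TGTTTAC of Atp6v1b1 begins 93 bases before the start, and the windows of Rhbg and Foxi1 held neither word. A match is a matter of letters and is not evidence of binding.
Slc4a9, chr18:28402543-28402792, plus strand: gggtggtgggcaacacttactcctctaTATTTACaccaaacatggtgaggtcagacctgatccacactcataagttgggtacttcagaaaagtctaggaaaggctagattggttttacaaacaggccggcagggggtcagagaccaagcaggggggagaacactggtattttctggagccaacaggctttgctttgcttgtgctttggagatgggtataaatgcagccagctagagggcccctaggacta
Rhbg, chr2:176015150-176015399, minus strand: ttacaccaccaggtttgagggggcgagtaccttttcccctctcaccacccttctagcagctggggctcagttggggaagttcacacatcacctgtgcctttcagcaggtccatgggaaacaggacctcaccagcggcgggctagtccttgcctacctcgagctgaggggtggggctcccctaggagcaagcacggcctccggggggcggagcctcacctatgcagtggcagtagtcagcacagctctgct
Foxi1, chr10:19314406-19314655, minus strand: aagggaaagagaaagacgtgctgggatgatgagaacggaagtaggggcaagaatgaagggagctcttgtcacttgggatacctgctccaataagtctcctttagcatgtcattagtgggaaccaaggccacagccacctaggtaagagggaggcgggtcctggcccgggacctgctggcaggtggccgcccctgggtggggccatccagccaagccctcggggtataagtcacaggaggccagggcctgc
Atp6v1b1, chr4:117781194-117781443, plus strand: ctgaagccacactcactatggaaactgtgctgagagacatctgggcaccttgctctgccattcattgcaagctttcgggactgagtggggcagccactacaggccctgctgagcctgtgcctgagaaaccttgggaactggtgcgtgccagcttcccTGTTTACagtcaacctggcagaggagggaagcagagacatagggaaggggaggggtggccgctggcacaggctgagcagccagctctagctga
The gene with the largest difference and a gene with one of the smallest, Slc4a9 and Atp6v1b1, were thus the 2 with a searched word in this window. Other forms of the forkhead core were not searched.

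Slc4a9 and Slc26a4 are the exchangers of beta cells. Slc4a9 read 4.39, 4.22 and 5.08 in the corn oil rats and 7.41, 7.86 and 6.78 in the o-nitroanisole rats. The highest control lay well under the lowest treated rat. Its log2 difference of 0.69 ± 0.10 (SE, n = 3 per group, 95% interval 0.44 to 0.94, limma adjusted p = 0.0937) is a 1.61-fold higher level, above the difference of 97.9% of all features. A second Slc4a9 probe gave 0.69 ± 0.12.

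Slc26a4, pendrin, read 35.6, 40.9 and 44.3 in the corn oil rats and 48.9, 53.8 and 51.8 in the o-nitroanisole rats. The groups were apart by a small margin, between 44.3 and 48.9. The log2 difference was 0.36 ± 0.10 (SE, n = 3 per group, 95% interval 0.12 to 0.60, limma adjusted p = 0.159). The dimmer probe gave 0.34 ± 0.11. Within each array the log2 signal of Slc4a9 minus that of Slc26a4 was higher by 0.33 in the treated rats, and the groups were apart (exact permutation test, two-sided, p = 0.1, the smallest that 3 against 3 can give; adjusted p = 0.233 over the 7 pairs compared in this way).

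The V-type proton ATPase is built from a cytosolic V1 sector, which splits ATP, and a membrane V0 sector, through which protons pass. Several of its subunits exist in a widespread form and in a form enriched in intercalated cells, and 4 of the latter were measured. Atp6v0d2, the d2 subunit of the V0 sector, read 5.16, 5.59 and 6.11 in the corn oil rats and 7.22, 8.34 and 8.10 in the o-nitroanisole rats. All treated rats were above all controls, and the log2 difference was 0.49 ± 0.09 (SE, n = 3 per group, 95% interval 0.26 to 0.72, limma adjusted p = 0.116).

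Atp6v1g3, the G3 subunit of the V1 stalk, read 63.9, 62.2 and 75.1 in the corn oil rats and 85.4, 92.6 and 90.4 in the o-nitroanisole rats. Corn oil replicate 3 was the nearest control, and still under every treated rat. The log2 difference was 0.42 ± 0.09 (SE, n = 3 per group, 95% interval 0.19 to 0.65, limma adjusted p = 0.129), and 0.27 with quantile scaling. On a dimmer probe the difference was 0.35 ± 0.12 and the groups overlapped narrowly, the highest control, 10.1, lying just above the lowest treated rat.

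Atp6v1b1, the B1 subunit, belongs to the part of V1 that binds ATP. It read 12.4, 13.0 and 13.2 in the corn oil rats and 12.8, 16.1 and 15.7 in the o-nitroanisole rats. Treated replicate 1 lay within the control range, while treated replicates 2 and 3 lay above it. The log2 difference was 0.20 ± 0.10 (SE, n = 3 per group, 95% interval -0.06 to 0.46, limma adjusted p = 0.372), and it ranged from 0.14 to 0.30 when single arrays were omitted, reaching 0.30 without o-nitroanisole replicate 1. It was 0.13 with quantile scaling and 0.10 with normexp background correction. A much dimmer probe gave 0.31 ± 0.11, with groups apart at 0.773 and 0.774.

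Atp6v1c2, the C2 subunit that helps hold the sectors together, read 1.66, 1.75 and 1.99 in the corn oil rats and 1.81, 2.27 and 1.90 in the o-nitroanisole rats. Treated replicates 1 and 3 lay inside the control range. The log2 difference was 0.14 ± 0.12 (SE, n = 3 per group, 95% interval -0.15 to 0.43, limma adjusted p = 0.559). It ranged on leaving out 1 array at a time from 0.04, without o-nitroanisole replicate 2, to 0.21, without corn oil replicate 3 or o-nitroanisole replicate 1, and was 0.08 without corn oil replicate 1. On their brightest probes the 4 pump subunits thus fell into a pair with groups apart, Atp6v0d2 and Atp6v1g3, and a pair with groups that overlapped. On the dimmer probes the groups of Atp6v1g3 overlapped and those of Atp6v1b1 were apart.

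Rhbg and Rhcg are ammonia carriers of the Rhesus family, Rhbg in the basolateral membrane and Rhcg mainly in the apical membrane of connecting tubule and collecting duct cells, principal cells included. Rhbg read 5.29, 6.28 and 6.46 in the corn oil rats and 7.94, 9.35 and 8.92 in the o-nitroanisole rats. Its groups were clearly apart, with a log2 difference of 0.54 ± 0.11 (SE, n = 3 per group, 95% interval 0.28 to 0.81, limma adjusted p = 0.118), a 1.46-fold higher level. Rhcg read 5.81, 6.24 and 6.0 in the corn oil rats and 6.48, 8.83 and 7.99 in the o-nitroanisole rats. Treated replicate 1 stood just above the controls and the other two well above them. The log2 difference of Rhcg was 0.36 ± 0.12 (SE, n = 3 per group, 95% interval 0.05 to 0.66, limma adjusted p = 0.215). The within-array difference between Rhbg and Rhcg was 0.18 higher in the treated rats on the log2 scale, with overlapping groups (exact permutation test, two-sided, p = 0.2; adjusted p = 0.233 over 7 pairs).

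**Figure D2:**
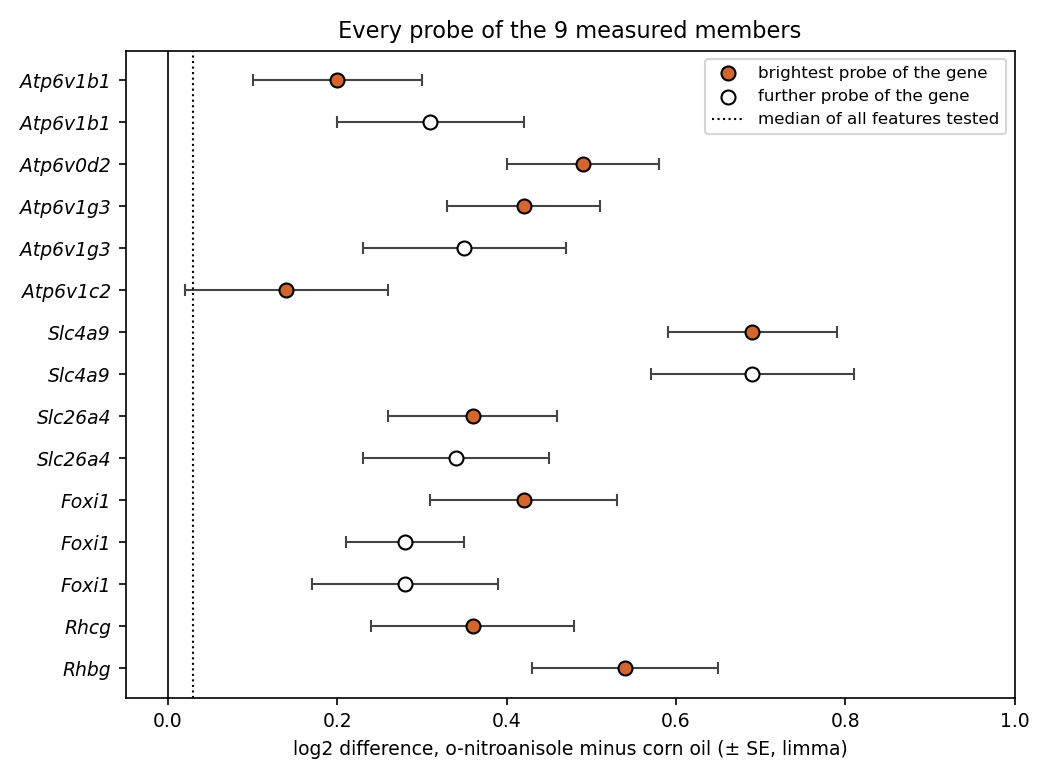
Log2 difference (o-nitroanisole minus corn oil) with its limma SE for each of the 15 probes of the 9 measured genes; filled points are the brightest probe of a gene and open points its further probes, and the dotted line is the median of all features tested, 0.03. Every probe lies to the right of 0, and probes of 1 gene differ by at most the distance between 0.28 and 0.42 seen for Foxi1.

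The rats did not share the difference evenly. Over the 9 genes, the mean of the centred log2 values was -0.28, -0.23 and -0.09 in corn oil replicates 1 to 3 and 0.10, 0.31 and 0.20 in o-nitroanisole replicates 1 to 3. Among controls, corn oil replicate 3 was the highest for 8 of the 9 genes. Among treated rats, o-nitroanisole replicate 2 was the highest for 8 and replicate 1 the lowest for 7. The exception was Foxi1, whose highest value was in treated replicate 1 by a small margin, 9.40 against 9.28 in replicate 2. Across the 6 arrays the Pearson correlations of the 36 gene pairs ran from 0.52 (Atp6v1b1 with Foxi1) through a median of 0.84 to 0.99 (Atp6v0d2 with Rhbg). These are descriptions, in which the arrays share their scaling and most pairs share the difference between groups.

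With a variance trend and robust moderation in limma, 2 of the 9 genes passed, both higher, where 1.24% of all features passed as higher: Slc4a9 (adjusted p = 0.0321 in that fit) and Atp6v0d2 (adjusted p = 0.0486 in that fit). Rhbg and Atp6v1g3 lay just outside, at 0.0516 and 0.0541. On leaving out 1 array at a time in that fit, 0 of the 9 passed in 5 of 6 cases, and without corn oil replicate 3 the genes past the threshold were Slc4a9 (0.0456) and Atp6v1g3 (0.0483). Each such fit also has fewer arrays.

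The paralogs of the pump subunits, found in most cells, were set beside the members. Atp6v1b2, the B2 subunit of cells in general and of the proximal tubule, read 21.5, 24.9 and 21.9 in the corn oil rats and 28.3, 30.1 and 30.7 in the o-nitroanisole rats. Its groups were apart and its log2 difference of 0.39 ± 0.08 (adjusted p = 0.125) was above that of Atp6v1b1. The within-array difference of Atp6v1b1 minus Atp6v1b2 was lower by a log2 value of -0.19 in the treated rats, with overlapping groups (exact permutation test, two-sided, p = 0.2). Atp6v0d1 differed by 0.01 ± 0.08 and Atp6v1g1 by 0.11 ± 0.05, both under their intercalated cell counterparts. Within arrays Atp6v0d2 minus Atp6v0d1 was 0.48 higher and Atp6v1g3 minus Atp6v1g1 0.31 higher in the treated rats, each with groups apart (exact permutation test, two-sided, p = 0.1, the smallest possible; adjusted p = 0.233). For Atp6v1c2 against Atp6v1c1, which differed by 0.25 ± 0.09, the value was -0.11 with overlapping groups (exact permutation test, two-sided, p = 0.7). On the brightest probes the difference was thus larger in the intercalated cell form for the d and G subunits. For the B and C subunits it was not. The probes of Atp6v1b2 ranged from 0.29 to 0.39 and those of Atp6v1c1 from 0.08 to 0.25. The dimmer Atp6v1b1 probe, at 0.31, and Atp6v1c2, at 0.14, lay within these ranges. None of the exact tests of these pairs, whose smallest p is 0.1, can pass 0.05.

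Of 20 other genes of the pump on the list, 18 were tested, 17 of them above 0 with a median log2 difference of 0.17, and 9 were higher and 0 lower at an unadjusted p under 0.05. Beside the unadjusted counts of this list and those below, 11.8% of all features were higher and 7.12% lower. No gene of this or any list below passed the adjusted threshold in the default fit. Atp6v1f, the F subunit of the central rotor, had the largest difference, 0.40 ± 0.06 (adjusted p = 0.0979). Atp6v1a, the A subunit that splits ATP, lay at 0.32 ± 0.09, though its 3 probes ranged from -0.10 to 0.32. Atp6v0a1, the widespread counterpart of the unmeasured Atp6v0a4, lay at 0.10 ± 0.09 with overlapping groups.

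Among 7 other genes of alpha cells 6 were tested, all above 0 with groups apart. Of all features 17.6% were apart with the treated rats on the higher side. The median of these 6 genes, 0.54, was higher than that of the members. Slc4a1, the basolateral chloride-bicarbonate exchanger AE1 and also a major protein of the red blood cell membrane, read 6.92, 6.52 and 8.05 in the corn oil rats and 9.82, 14.3 and 10.4 in the o-nitroanisole rats, a log2 difference of 0.67 ± 0.17 (adjusted p = 0.147). Without Slc4a1 the median of the remaining 5 was 0.53. Dmrt2, a transcription factor gene, read 0.561, 0.537 and 0.635 against 0.912, 0.958 and 0.840, a difference of 0.65 ± 0.09 (adjusted p = 0.0910). Hepacam2, a cell adhesion gene, differed by 0.56 ± 0.09 (adjusted p = 0.0979) and Aqp6, a vesicle aquaporin of alpha cells, by 0.53 ± 0.07 (adjusted p = 0.0880). The brightest Aqp6 probe was dim, with scaled signals from 0.119 to 0.188. With trend and robust moderation Dmrt2 and Hepacam2 passed, at adjusted p = 0.0356 and 0.0409 in that fit. The differences of Kit and Adgrf5 were smaller on their brightest probes. Kit, a receptor tyrosine kinase gene, lay at 0.19 ± 0.09 (adjusted p = 0.311), with probes from 0.19 to 0.35. Adgrf5, an adhesion receptor gene, lay at 0.12 ± 0.06 (adjusted p = 0.381). For Kit the groups were apart only by 0.332 against 0.335.

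The 4 other genes of beta cells were less alike, with a median of 0.22 and 3 of 4 above 0. Oxgr1, the 2-oxoglutarate receptor of these cells, differed by 0.25 ± 0.08 (adjusted p = 0.191), and Insrr, an alkali sensor of the insulin receptor family, by 0.20 ± 0.09 (adjusted p = 0.335). The brightest Oxgr1 probe was dim, with scaled signals from 0.0793 to 0.105. Slc4a8, a sodium-driven exchanger, lay at -0.34 ± 0.26 with overlapping groups (adjusted p = 0.530). Within arrays Slc4a9 minus Slc4a8 was 1.02 higher in the treated rats, again with overlapping groups (exact permutation test, two-sided, p = 0.2; adjusted p = 0.233). Slc4a9 thus stood above every other gene listed for beta cells, pendrin included, and whether alpha and beta cell genes differ as groups was not tested.

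Further acid-base genes went in several directions. Of 11 tested carbonic anhydrases, which supply protons and bicarbonate, 4 were higher and 0 lower at an unadjusted p under 0.05, with a median of 0.20. Car2, the cytosolic form of intercalated and other tubule cells, read 20.3, 23.5 and 24.3 in the corn oil rats and 28.7, 28.8 and 25.5 in the o-nitroanisole rats, a difference of 0.29 ± 0.10 (adjusted p = 0.208). Car4, a membrane-bound form abundant in the proximal tubule, differed by 0.77 ± 0.14 (adjusted p = 0.108) and Car12 by 0.26 ± 0.07 (adjusted p = 0.155). Of 13 other tested transporters of acid or base 1 was higher and 2 lower at an unadjusted p under 0.05. The higher one was the proximal bicarbonate exit Slc4a4, at 0.39 ± 0.13. The lower ones were the exchanger Slc4a2, at -0.21 ± 0.08, and the cotransporter Slc4a7, at -0.59 ± 0.12. The 3 probes of Slc4a2 ranged from -0.21 to 0.06, and Slc4a7 had 1 dim probe, with scaled signals from 0.0478 to 0.0907. The median of the 13 was 0.04, near that of all features, and 7 lay above 0. Atp12a lay at -0.45 ± 0.32 and Atp4a at -0.05 ± 0.14, both with overlapping groups. The probes of Atp4a ranged from -0.05 to 1.82.

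Ammonia made in the proximal tubule is what Rhbg and Rhcg pass on into urine. All 7 tested genes of its synthesis lay above 0, with a median of 0.30, and 5 were higher and 0 lower at an unadjusted p under 0.05. Pck1, which turns the carbon left from glutamine into glucose, read 132, 183 and 168 in the corn oil rats and 241, 237 and 235 in the o-nitroanisole rats, a difference of 0.57 ± 0.13 (adjusted p = 0.130). Glud1, glutamate dehydrogenase, differed by 0.30 ± 0.08 (adjusted p = 0.161). Controls and treated rats were apart for both of these genes.

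Of 9 tested regulators of collecting duct cell fate, 2 were higher and 1 lower at an unadjusted p under 0.05. Tfcp2l1, a transcription factor of collecting duct cells, differed by 0.44 ± 0.10 (adjusted p = 0.128), and Elf5, a factor of principal cells, by 0.26 ± 0.06 (adjusted p = 0.139). The brightest Elf5 probe was dim, with scaled signals from 0.119 to 0.153. Mib1, which activates Notch ligands, lay at -0.21 ± 0.06 (adjusted p = 0.189).

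**Figure D3:**
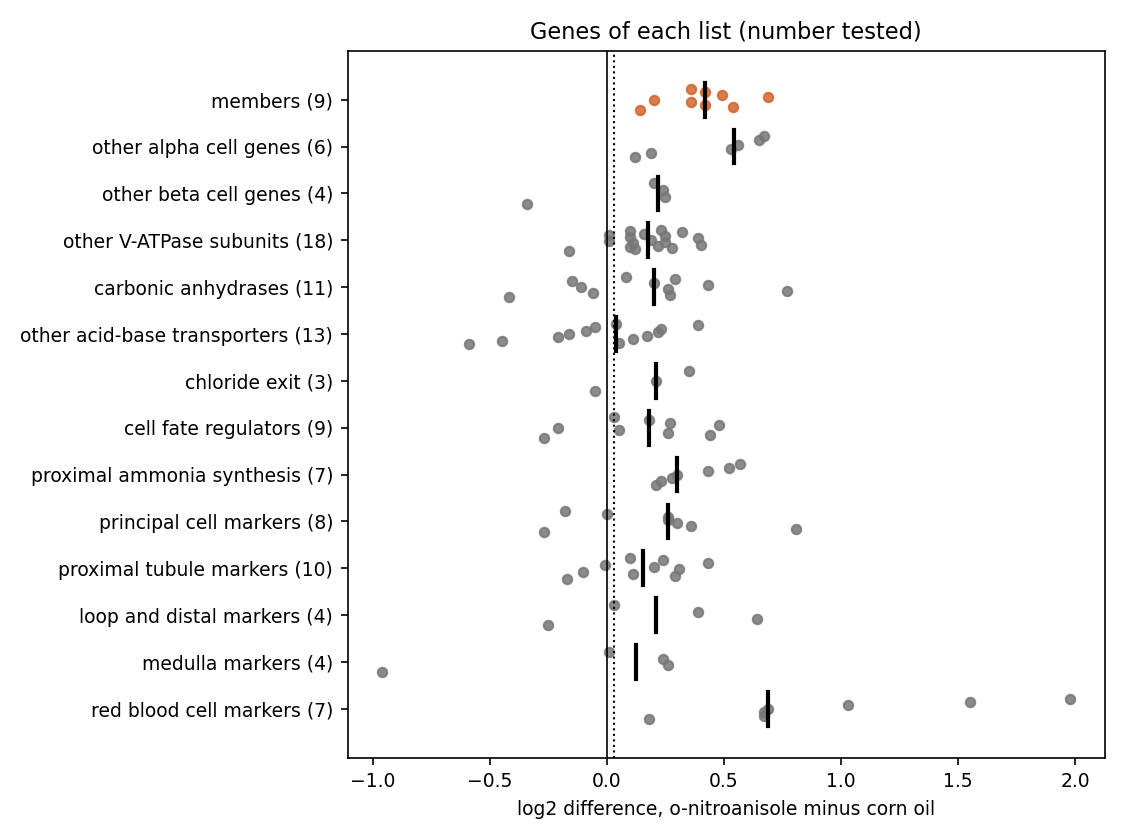
Log2 differences (o-nitroanisole minus corn oil) of the tested genes of each list, 1 point per gene, with the list's median as a thick bar, 0 as a solid line and the median of all features as a dotted line; numbers in brackets are genes tested. The members, with a median of 0.42, and the other alpha cell genes, with 0.54, lie wholly to the right of 0, as do the genes of ammonia synthesis and the red blood cell markers.

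Markers of other cell types also differed between the groups, and their part in the differences was not tested. The mean log2 level of the 9 members ran from 3.09 to 3.28 over the corn oil arrays and from 3.47 to 3.68 over the o-nitroanisole arrays. For 8 principal cell markers, the neighbours of intercalated cells, the ranges were 2.74 to 2.89 and 2.90 to 3.07, and 4 were higher and 0 lower at an unadjusted p under 0.05, with 5 of 8 above 0 and a median of 0.26. Aqp2, the vasopressin-regulated water channel, differed by 0.26 ± 0.10 on its brightest probe and 0.03 on the other. Aqp4 differed by 0.81 ± 0.11, with probes from 0.06 to 0.84. Scnn1b differed by 0.36 ± 0.08 and Scnn1g by 0.30 ± 0.08, both with groups apart. Scnn1a lay at 0.26 ± 0.18, with probes from -0.11 to 0.26, and Avpr2 at -0.27 ± 0.13, both with overlapping groups. The mineralocorticoid-protecting enzyme gene Hsd11b2 lay at -0.18 ± 0.17 and Aqp3 at 0.00 ± 0.19.

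For 10 proximal tubule markers the mean ran from 5.98 to 6.02 in the corn oil rats and from 6.09 to 6.19 in the o-nitroanisole rats, with 3 higher and 0 lower and a median of 0.15. For 4 markers of the loop of Henle and distal tubule the ranges overlapped, 4.88 to 5.14 and 4.94 to 5.31, with a median log2 difference of 0.21 and 3 of 4 above 0. At an unadjusted p under 0.05, 0 were higher and 1, the uromodulin gene Umod, was lower, at -0.25 ± 0.07. The other three overlapped between groups, with Calb1, a calcium-binding protein gene, at 0.64 ± 0.33, the sodium-chloride cotransporter gene Slc12a3 at 0.39 ± 0.20 and Egf at 0.03 ± 0.11. For 4 medulla markers the ranges also overlapped, 1.80 to 2.02 and 1.73 to 1.84, with a median of 0.12, 3 of 4 above 0, and 1 higher (Aqp2, also a principal cell marker) and 1 lower at an unadjusted p under 0.05. The lower one, Cryab, a small heat shock protein gene, read 50, 17.0 and 30.5 in the corn oil rats and 17.4, 13.8 and 14.8 in the o-nitroanisole rats, a log2 difference of -0.96 ± 0.39 (adjusted p = 0.264). Its groups overlapped, with corn oil replicate 1 the highest. Slc14a2, the urea carrier of the inner medulla, differed by 0.01 ± 0.12 and Akr1b1, aldose reductase, by 0.24 ± 0.20.

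Red blood cell markers stood furthest apart, from 1.73 to 1.85 in the corn oil rats and from 2.51 to 2.99 in the o-nitroanisole rats over 7 tested genes, of which 6 were higher and 0 lower and whose median was 0.69, or 0.86 over 6 genes without Slc4a1. Within the treated rats the order was the reverse of that of the members: replicate 1 had the highest red blood cell mean, 2.99, and the lowest member mean, 3.47, and replicate 2 the lowest red blood cell mean, 2.51, and the highest member mean, 3.68. In the corn oil rats both means had the same order, lowest in replicate 1 and highest in replicate 3. Rhag, the red blood cell relative of Rhbg and Rhcg, did not pass the filter for dim probes.

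**Figure D4:**
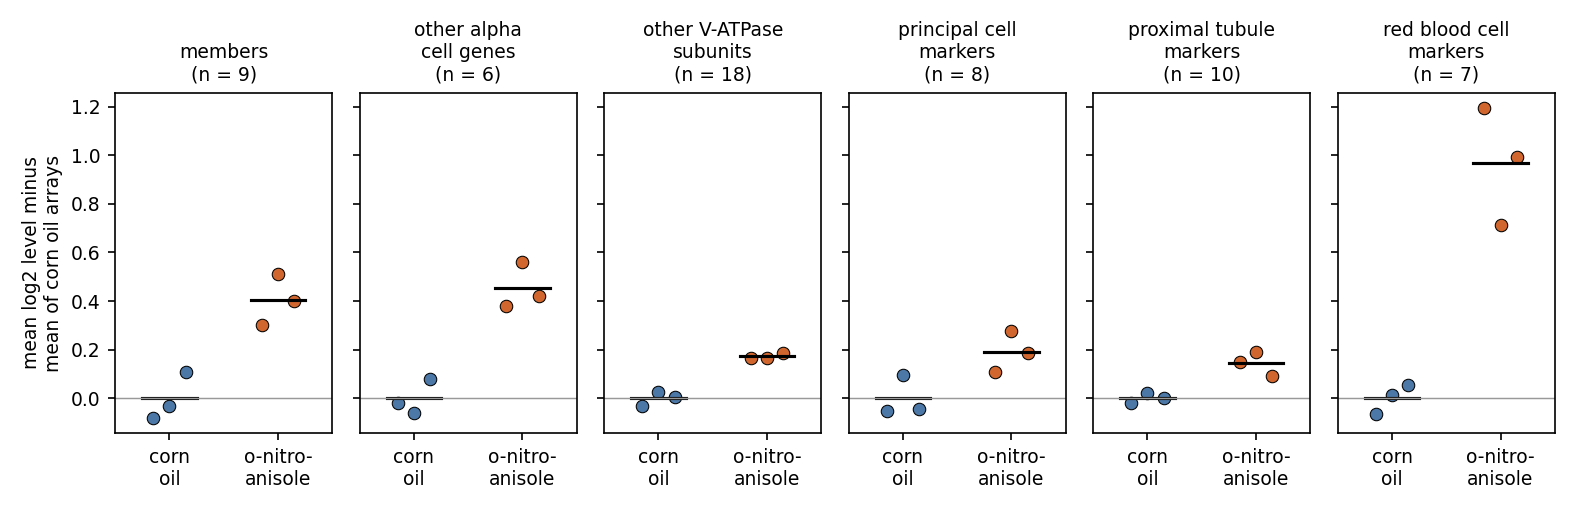
Mean log2 level over the tested genes of 6 lists, 1 point per array, relative to the mean of the corn oil arrays of the same list; blue points are corn oil and orange points o-nitroanisole rats, in replicate order, and the line is the group mean. Treated arrays lie above control arrays in all 6 panels, by the most for red blood cell markers, and treated replicate 2 is the highest for the members and the lowest for red blood cell markers.

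Outside the lists, the genes whose profile over the 6 arrays was most like the mean profile of the members were Rab25, a small GTPase of epithelial membrane recycling (Pearson r = 0.9958), Oxct1, which breaks down ketone bodies (0.9954), Ell, a transcription elongation gene (0.9948), RT1-Da, an MHC class II gene (0.9943), and Timm8b, for protein import into mitochondria (0.9934). They were the highest of 11691 named features, of which 120 were above 0.95, and all arrays share their scaling and the difference between groups. Their log2 differences were 0.17 to 0.35, smaller than that of Slc4a9.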

How the data were processed

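The scanner files came from Feature Extraction 10.7 (Agilent), as the submitters' processing notes say, in which the processed signal is an intensity; per the file headers, background subtraction and a spatial detrending fit were recorded, and its 75th percentile differs between arrays. In the deposited value table the unit is a ratio, the signal of an array over that array's 75th percentile: within 1%, 100% of probes well above background fitted this in 1 scanner file per column. Its corn oil columns 1, 2 and 3 match the scanner files of replicates 3, 1 and 2, so the numbering of the corn oil rats is uncertain while their group is the same in both. Column medians ran from 0.101 to 0.108.

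Here log2 signals were centred on the 75th percentile of each array (905 to 1041 before log2). Of 61657 non-control probes, 66.4% to 71.5% per array were well above background. Precision is limited by there being 6 arrays. Spike-in probes (84) and outlier spots were left out, and no probe was saturated. Names came from RefSeq accessions (GRCr8), matched for 27460 probes. Probes well above background on every array of 1 group were kept, with the brightest probe per gene, giving 32428 features. The test was limma (version 3.58.1, R version 4.3.3) with lmFit and eBayes and a Benjamini-Hochberg threshold of 0.05. It was also tried on simulated data drawn from the means and SDs of these data. Pairs were compared with scipy 1.17.1. Normexp used the median signal, since the mean signal was not used here. Planned protein comparisons were not made. The limma p-values set the group difference against the spread among arrays within groups, moderated over all features. Each rat had a single array, so the spread of rats and that of arrays are not separated. Named genes were all members, for each list any past the threshold or otherwise up to 3 with groups apart and the largest difference, some fixed partners, and the 5 most alike in profile; further genes named were chosen after their values were seen. The members and lists were chosen with earlier results of these data known. Some genes that this rule selects are not reported here.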

Additional observations from a re-analysis of the deposited data

How the results depend on the processing

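All 9 measured genes kept a log2 difference above 0 under all 17 other settings and the 6 chosen after seeing the data, which leave out 1 array each in the trend and robust fit. Quantile scaling gave the members a median of 0.31, with 5 at an unadjusted p under 0.05 (Slc26a4 and Rhcg lost), where 8.79% of all features were higher. Normexp called 115 features and 2 other genes of the pathway, but 0 members. The trend and robust fit called 522 features, 2 members and 6 other genes of the pathway. Leaving out 1 array called 0 to 4 features by default, the 4 without corn oil replicate 3. With trend and robust moderation it called 0 to 69 features (6, 62 and 69 without corn oil replicate 1, 2 and 3, and 35, 0 and 24 without o-nitroanisole replicate 1, 2 and 3), 0 to 2 members and 0 to 1 other genes of the pathway. Each of these fits has fewer arrays, and the cause of the changed counts was not tested. At an unadjusted p under 0.05 there were 6 to 8 members on leaving out 1 array, all higher, where 8.38% to 12.4% of all features were higher. The replicate block gave 0 called features and 0 called members, and it changed no call. With it 7 members had an unadjusted p under 0.05, where 9.69% of all features were higher. Same-numbered arrays are not shown to be paired, with correlations of 0.0911, 0.0584 and 0.0257 between their deviations. The slide block was not run, since no slide held both groups.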
